A study of Mus musculus with 6 samples.

Results

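The collagen chains of MLO-Y4 cells, taken as every gene of the deposited table whose symbol has the form of Col, a number, the letter a and a number, were compared between cells stimulated with low-intensity pulsed ultrasound (LIPUS) and control cells. The rule found 44 genes among the 53797 listed, and they were divided into 11 fibrillar chains, 9 network-forming chains, 9 FACIT chains (collagens that lie on fibrils with an interrupted triple helix) and 15 other chains. MLO-Y4 cells are a mouse line with traits of osteocytes, the cells embedded in bone. There were 3 LIPUS samples, stimulated for 20 min at 1.5 MHz and 30 mW/cm2, and 3 Control samples without stimulation. RNA was taken 30 min after stimulation ended. The study's results describe the experiment as repeated independently, with 3 independent RNA samples, while its methods except the RNA-seq from the experiments that were repeated, so it is not settled here what the 3 samples share. Both groups were grown in medium with fetal bovine serum on collagen-coated dishes. Treated and control wells shared a plate, in which the transducers under the control wells were unplugged. The study describes a Control sample that stood apart from the other two and names ultrasound reaching the control wells as a possible reason. Its values are part of every pooled Control level below and cannot be left out, and its part in the differences was not tested. The question was whether the genes of the collagen matrix differed shortly after the stimulus.

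The authors deposited 1 pooled FPKM (fragments per kilobase of exon, scaled to the mapped fragments of a library, a level per transcript length) for each group, so the values carry no SD, and no test was run on them. The authors' own comparison over the samples, which the table also holds, was not used. A difference is given here as log2((LIPUS + 0.1)/(Control + 0.1)) in FPKM, so positive values are higher with LIPUS and the differences of low genes are understated. A gene was counted as measured at a mean FPKM of at least 1 over both groups, and a fold of 1.5 in either direction on this scale was used to count differences. In such pooled RNA, fewer cells that express a gene and less RNA of it per cell cannot be told apart.

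Collagens are secreted proteins of 3 chains wound into a triple helix, built from a short repeat that opens with glycine. Fibrillar collagens form the tensile fibrils of bone, skin and tendon, network-forming collagens build sheets such as the basement membrane, and FACIT collagens decorate the fibril surface. In bone, type I collagen is the main organic component of the matrix that osteoblasts lay down and that surrounds osteocytes.

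The repeat that defines a chain can be read in its coding exons. The sequences show, for 10 of the chains described below, chosen to cover the 4 structural groups and the chains that differed most among those with status OK, the first coding exon of 54 bases that is filled by 6 units of 9 bases, each led by a glycine codon (GGN). They were read from the GENCODE M21 transcript with the longest coding sequence, 5′ to 3′ on the coding strand, and capitals mark the GGN codon that opens each unit.
Col1a1: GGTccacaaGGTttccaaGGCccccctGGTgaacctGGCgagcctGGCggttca
Col1a2: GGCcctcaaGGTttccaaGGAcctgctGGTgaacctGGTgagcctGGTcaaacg
Col3a1: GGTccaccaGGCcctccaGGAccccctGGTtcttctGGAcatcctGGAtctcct
Col5a2: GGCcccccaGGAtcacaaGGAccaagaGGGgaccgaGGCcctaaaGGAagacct
Col5a3: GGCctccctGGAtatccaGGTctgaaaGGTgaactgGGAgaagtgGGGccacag
Col4a1: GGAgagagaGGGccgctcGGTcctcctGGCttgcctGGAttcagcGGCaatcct
Col12a1: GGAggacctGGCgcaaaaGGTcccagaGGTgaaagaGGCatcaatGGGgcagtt
Col16a1: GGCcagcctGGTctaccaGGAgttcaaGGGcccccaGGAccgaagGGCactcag
Col6a1: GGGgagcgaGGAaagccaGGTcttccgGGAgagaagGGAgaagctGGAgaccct
Col7a1: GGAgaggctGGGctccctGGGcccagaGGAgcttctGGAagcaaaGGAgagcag
In GRCm38, the exon of Col1a1 is coding exon 8 of 51 at chr11:94939904-94939957 on the plus strand, and that of Col1a2 is coding exon 8 of 52 at chr6:4515481-4515534 on the plus strand. The exons of Col3a1 and Col5a2 lie at chr1:45325360-45325413 on the plus strand and chr1:45434892-45434945 on the minus strand. On the minus strand are also those of Col5a3 (chr9:20801068-20801121), Col4a1 (chr8:11245211-11245264), Col12a1 (chr9:79614349-79614402) and Col6a1 (chr10:76719623-76719676). The exons of Col16a1 (chr4:130067219-130067272) and Col7a1 (chr9:108967172-108967225) are on the plus strand.

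Exons of this length were most frequent in the fibrillar chains, and frequent in some FACIT chains as well. Of 627 inner coding exons in the 11 fibrillar chains, 305 (48.6%) had a length of exactly 54 bases, against 26.3% in the FACIT chains, 4.23% in the network chains, 7.26% in the other chains and 0.444% of 157142 inner coding exons in the other protein-coding genes of the table. In Col9a2 and Col9a3, 14 of 30 inner coding exons had this length, and in Col22a1 28 of 61, close to the 21 of 49 in Col1a1. A length divisible by 9 was found for 83.9% of the fibrillar exons and for 13.7% of those of the other genes. All 21 coding exons of 54 bases in Col1a1 were filled by 6 GGN-led units, as were both of those in Col4a1, while Col7a1 had 4 such exons among 6. The longest unbroken run of GGN-led codon triplets was 338 in Col1a1, 339 in Col1a2 and 344 in Col3a1, and the lowest among the fibrillar chains was 216 in Col24a1. In the network, FACIT and other chains it reached at most 66, 113 and 87, and the runs of Col4a1 and Col12a1 were 40 and 32. The coding sequences were also rich in G and C, with a median of 61.3% in the fibrillar chains and 58.9% over all members, against 52.2% in the other protein-coding genes.

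**Figure D1:**
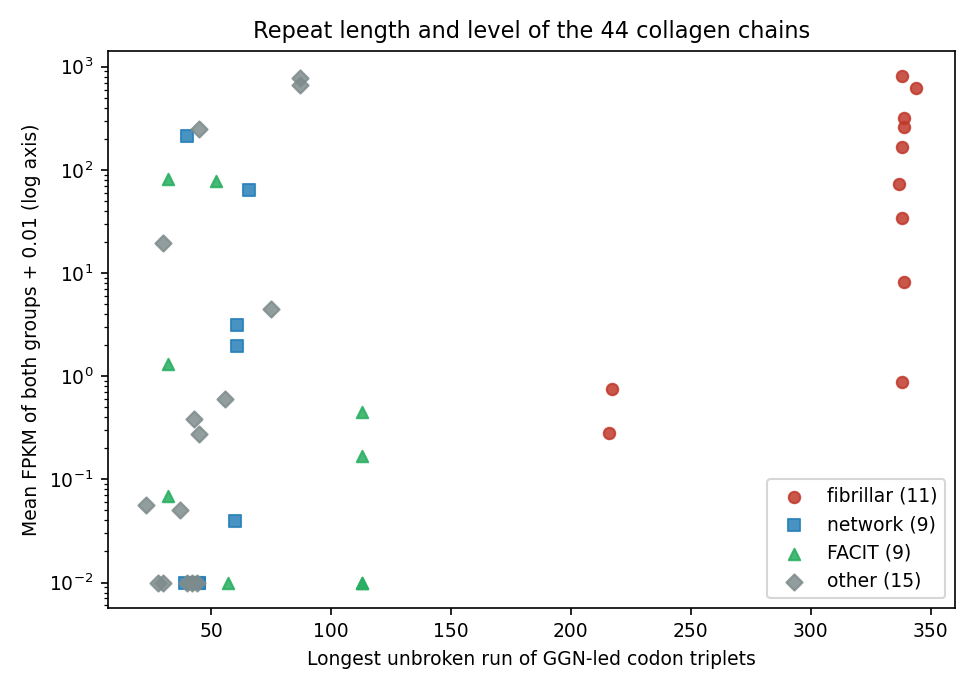
Longest unbroken run of GGN-led codon triplets in each of the 44 collagen chains (horizontal axis, number of triplets) against its mean FPKM over both groups plus 0.01 (vertical axis, log scale), with symbols for the 4 structural groups. The 11 fibrillar chains stand apart at 216 triplets or more, and chains of high and low level occur at both ends.

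MLO-Y4 cells transcribed these genes in all 4 structural groups. Of the 44 chains, 20 (45.5%) were measured, against 48.5% of the protein-coding genes, and 16 had the status OK, meaning that the authors' program Cuffdiff made a comparison for them (36.4%), against 36% of the protein-coding genes of the table. The other 28 were marked NOTEST and received no comparison. The lowest chain with status OK was Col2a1, with 8.76 FPKM in its higher group, and the highest chain without it was Col7a1, with 5.76 FPKM. Listed at 0 in both groups were 12 chains (27.3%), against 39.8% of the protein-coding genes, while none of 10 genes that every cell uses, such as Actb and Gapdh, was at 0. The summed level of all chains was 4307 FPKM in LIPUS and 4599 FPKM in Control, or 0.698% and 0.770% of the summed FPKM of all genes. The 9 most abundant chains held 90.9% of the collagen sum in LIPUS and 92.3% in Control.

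The labelled cell type was checked on markers. Of 7 osteocyte markers, Pdpn (402 FPKM in LIPUS, 295 in Control), Gja1 (170 and 176) and Dmp1 (7.65 and 3.04) were measured, the list summed to 579 FPKM in LIPUS and 475 FPKM in Control, and Sost, Mepe and Fgf23, which mark mature osteocytes, were listed at 0 in both groups. Of 7 osteoblast markers 5 were measured, Col1a1 among them, and the list summed to 5099 FPKM in LIPUS and 5729 FPKM in Control. Most of this sum was Spp1 (osteopontin), with 4158 FPKM in LIPUS and 4514 FPKM in Control. Alpl, an alkaline phosphatase, was at 190 FPKM in LIPUS and 293 FPKM in Control (log2 difference -0.63). Bglap, which was not counted as measured, went the other way, with 1.58 FPKM in LIPUS and 0 in Control. All 4 epithelial markers and 3 of 4 endothelial markers were at 0 in both groups. The macrophage and osteoclast markers summed to 3.05 FPKM in LIPUS and 5.76 FPKM in Control, with Ptprc and Adgre1 at 0. Against the direction of this sum, Acp5 had 1.10 FPKM in LIPUS and 0.204 FPKM in Control. Of 7 chondrocyte markers Sox9, Col2a1 and Col10a1 were measured, while Acan and Matn1 were at 0, and the list summed to 76.3 FPKM in LIPUS and 54.7 FPKM in Control. Of these sums Sox9 made up 66.8 and 43.7 FPKM, while Col2a1 and Col10a1 were lower in LIPUS. Of 5 tenocyte or fibroblast markers Pdgfra and Scx were measured, at 51.2 and 12.8 FPKM in LIPUS and 42.9 and 8.79 FPKM in Control, and the other 3 were at 0. The part of these cell types in the levels of the collagen chains was not tested.

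**Figure D2:**
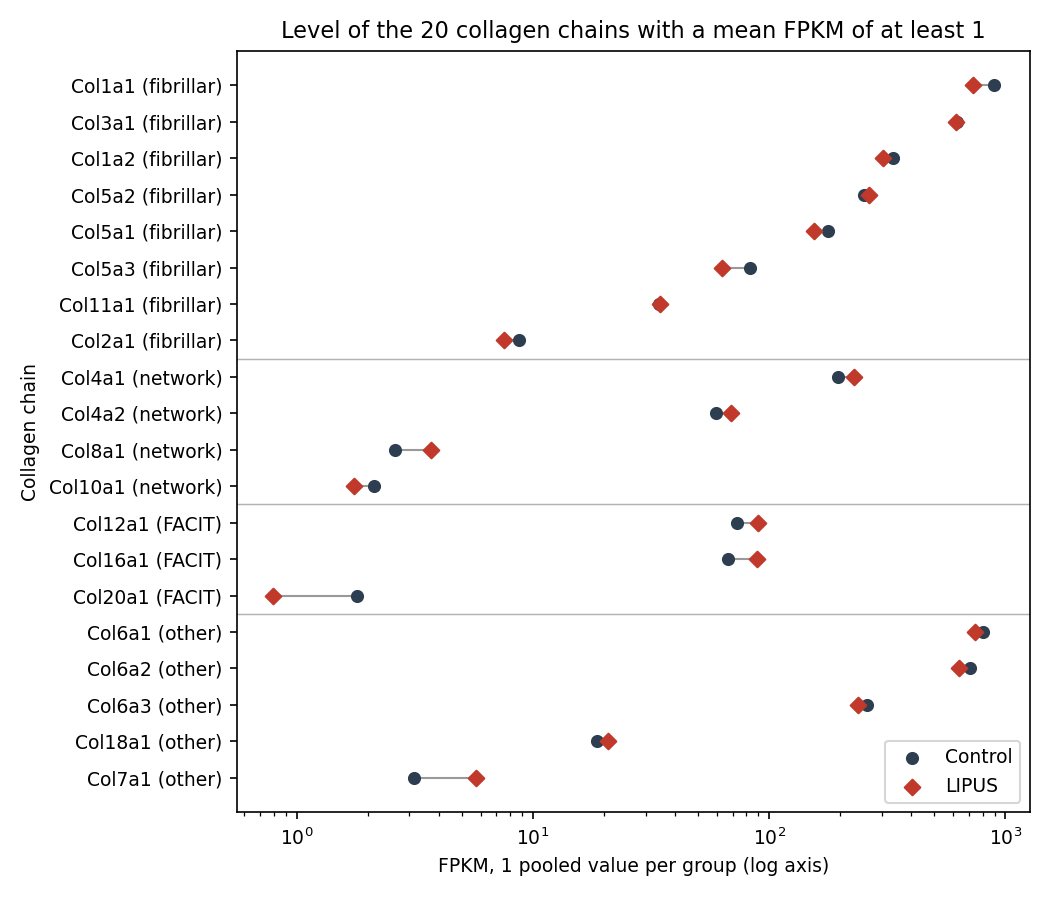
FPKM of the 20 measured collagen chains in LIPUS (diamonds) and Control (circles), 1 pooled value per group on a log axis, ordered by structural group and level. The symbols of a chain lie close together for the abundant chains and farther apart for Col7a1 and Col20a1, whose levels are low.

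The levels in the pooled groups differed little. Of the 20 measured chains, Col7a1 was higher with LIPUS by a fold of at least 1.5 and Col20a1 was lower by as much, so that 2 of 20 (10%) passed this fold, against 15.5% of the 11536 measured genes (7.46% higher and 8.08% lower). Col20a1 was measured only through its Control level, since its LIPUS level was below 1 FPKM. The median log2 difference was -0.06 over the measured chains and -0.00179 over all measured genes. None of the 16 chains with status OK passed the fold in either direction, against 9.31% of the genes with that status. Their log2 differences lay between -0.39 (Col5a3) and 0.41 (Col16a1), inside the central 95% of the genes with status OK (-0.74 to 0.76). Of these 16 chains 7 were above 0 and 9 below.

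The depth behind these values was estimated from their smallest steps. Genes of 1 annotated transcript of at least 3000 bases were used, with their values multiplied by transcript length. Inside a window of low values set by hand, the median was 0.226 FPKM kb in LIPUS (139 genes). A further window was set by hand to span 2 times this value. Its median of 0.451 was largely fixed by that choice and does not bear on what the first step stands for. In Control 2 adjoining windows, also set by hand, had medians of 0.197 (50 genes) and 0.262 (86 genes). If these medians are the worth of 1 fragment, which was not tested, the steps stand for about 4420000 fragments in LIPUS. In Control they stand for between 3820000 and 5080000, in each case summed over the libraries of a group. Col1a1 then rested on about 19175 fragments in LIPUS and 20183 in Control, Col7a1 on 236 and 110, and Col20a1 on 16 and 31. The intervals given below come from these fragments, taking the larger step for Control. They cover counting error only, not the spread between cultures, and were added after the values had been seen. The methods state a sequencing depth 6.78 times as high as the LIPUS step gives, if 2 reads make a fragment and all were mapped, and the reason for this gap was not tested. At that depth the intervals are narrower, and those of 3 of the 20 measured chains include 0 (Col3a1, Col11a1 and Col10a1), against 6 by the steps.

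**Figure D3:**
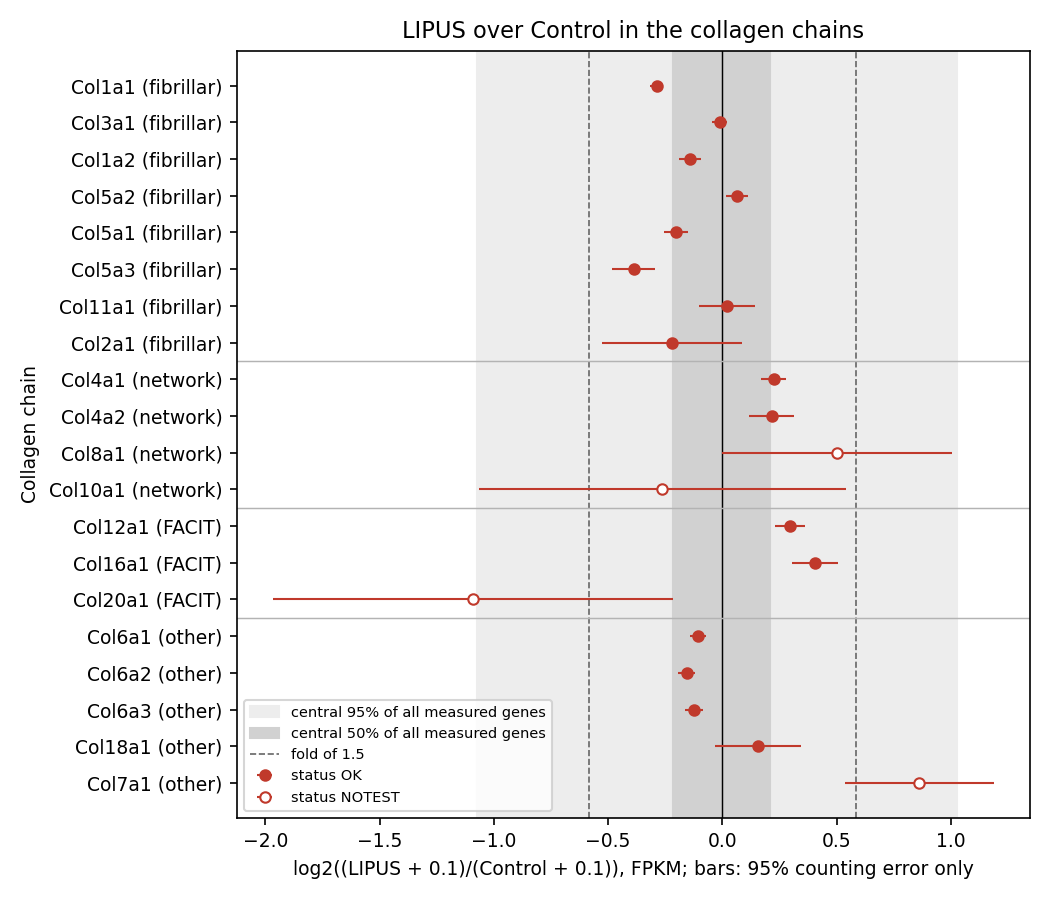
log2((LIPUS + 0.1)/(Control + 0.1)) in FPKM for the 20 measured collagen chains, with bars for the 95% counting error, filled symbols for status OK and open symbols for NOTEST; the bands show the central 50% and the central 95% of all measured genes, and dashed lines mark a fold of 1.5. Every filled symbol lies between the dashed lines, with Col5a3 the lowest at -0.39 and Col16a1 the highest at 0.41.

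None of the 8 measured fibrillar chains passed the fold. All 8 had status OK, 6 were below 0 and 2 above, against 4006 below 0 of the 8145 genes with that status, and the median log2 difference was -0.17. Of the 6 below 0, Col3a1 and Col2a1 had counting intervals that include 0. Col1a1, the α1 chain of type I collagen, on chromosome 11 from 94936224 to 94953042, had 891 FPKM in Control and 731 FPKM in LIPUS, a log2 difference of -0.29 (counting interval -0.31 to -0.26). It ranked 92nd among all listed genes in Control and 121st in LIPUS. Col1a2, the α2 chain of the same trimer, on chromosome 6 from 4504814 to 4541544, had 334 and 303 FPKM (log2 difference -0.14, counting interval -0.19 to -0.09). Both type I chains were therefore lower in the LIPUS pool, Col1a1 by more, although neither came near the fold of 1.5. Col3a1, whose homotrimer accompanies type I collagen in extensible tissues, had 624 FPKM in Control and 619 FPKM in LIPUS, a log2 difference of -0.011 whose counting interval (-0.045 to 0.023) includes 0.

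The type V and type XI chains, which start fibrils and limit their width, differed among themselves. Col5a1 had 177 FPKM in Control and 154 FPKM in LIPUS (log2 difference -0.20, counting interval -0.26 to -0.15). Col5a2 had 252 and 263 FPKM (0.07, counting interval 0.02 to 0.11). Col5a3, on chromosome 9 from 20770050 to 20815067, had 82.8 and 63.2 FPKM, and with -0.39 (counting interval -0.48 to -0.29) it was the most negative of all chains with status OK. The type V chains therefore did not share a direction. Col11a1 was at 34.0 FPKM in Control and 34.5 FPKM in LIPUS (0.02, counting interval -0.10 to 0.14). Col2a1, the chain of cartilage fibrils, was at 8.76 and 7.51 FPKM (-0.22, counting interval -0.53 to 0.09), so for both the interval by the steps includes 0. At the stated depth that of Col2a1 is -0.33 to -0.11. Col11a2, Col24a1 and Col27a1 stayed below a mean FPKM of 1.

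Among the network-forming chains, only the most widespread type IV chains were abundant. Col4a1 and Col4a2, the α1 and α2 chains of basement membranes, had 195 and 59.5 FPKM in Control and 228 and 69.2 FPKM in LIPUS. The log2 difference was 0.22 for each, with counting intervals of 0.17 to 0.28 for Col4a1 and 0.12 to 0.31 for Col4a2. Both were thus higher in the LIPUS pool by nearly the same factor. The chains of kidney and other specialised basement membranes, Col4a3, Col4a4, Col4a5 and Col4a6, were listed at 0 in both groups. Col8a1, a short chain of subendothelial and corneal networks, had 2.60 FPKM in Control and 3.72 FPKM in LIPUS (0.50), and Col10a1, the chain of hypertrophic cartilage, had 2.12 and 1.75 FPKM (-0.26). By the steps both counting intervals include 0, at the stated depth that of Col8a1 is 0.32 to 0.69, and neither had a comparison by the authors' program.

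The abundant FACIT chains were both higher with LIPUS. Col12a1, whose large product links fibrils to other matrix proteins, on chromosome 9 from 79598991 to 79718831, had 72.9 FPKM in Control and 89.6 FPKM in LIPUS, a log2 difference of 0.30 (counting interval 0.23 to 0.36). Col16a1, on chromosome 4 from 130047840 to 130099283, had 67.1 and 88.9 FPKM, and its 0.41 (counting interval 0.31 to 0.51) was the largest difference among the chains with status OK. A lower threshold of 0.32 on the log2 scale was passed with status OK by Col16a1 upward and Col5a3 downward, that is 2 of 16 (12.5%), against 26.8% of the genes with that status. Col20a1 was listed with 1.80 FPKM in Control and 0.793 FPKM in LIPUS (-1.09), at 31 and 16 estimated fragments. The type IX chains Col9a1 and Col9a2, which coat cartilage fibrils, and Col19a1 were at 0 in both groups. Col9a3, also of type IX, was listed with 0.281 FPKM in Control and 0.602 FPKM in LIPUS.

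Of the chains outside these groups, type VI collagen made up nearly the whole. Its 6 chains, which assemble into beaded filaments around cells, held 37.6% of the collagen sum in LIPUS and 38.5% in Control. Col6a1, on chromosome 10 from 76708792 to 76726168, had 803 FPKM in Control and 745 FPKM in LIPUS (-0.11, counting interval -0.14 to -0.07), Col6a2 had 707 and 634 FPKM (-0.16, counting interval -0.19 to -0.12), and Col6a3 had 260 and 238 FPKM (-0.12, counting interval -0.16 to -0.09). The 3 expressed type VI chains were therefore lower in the LIPUS pool by similar small amounts, while Col6a4, Col6a5 and Col6a6 stayed below a mean FPKM of 1. Col18a1, a proteoglycan of basement membranes that contains endostatin, had 18.6 FPKM in Control and 20.7 FPKM in LIPUS (0.16, counting interval -0.03 to 0.35 by the steps and 0.09 to 0.23 at the stated depth).

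Col7a1, the chain of anchoring fibrils below epithelia, on chromosome 9 from 108953586 to 108984875, showed the largest positive difference of a measured chain. It was listed with 3.13 FPKM in Control and 5.76 FPKM in LIPUS, a log2 difference of 0.86 with a counting interval of 0.54 to 1.19, or a 1.82-fold higher level. The gene was marked NOTEST, and the spread between cultures is not known for it. Its level was 0.788% of that of Col1a1 in LIPUS and 0.351% in Control.

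The structural groups held similar shares of the collagen sum in both pools. Fibrillar chains held 50.6% in LIPUS and 52.3% in Control, network chains 7.02% and 5.64%, FACIT chains 4.18% and 3.10%, and the other chains 38.2% and 39.0%. On the log2 scale the summed FPKM differed by -0.14 for the fibrillar, 0.22 for the network, 0.34 for the FACIT and -0.12 for the other chains, with -0.09 for all chains together. The higher sums of the network and FACIT chains come mainly from Col4a1, Col4a2, Col12a1 and Col16a1.

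**Figure D4:**
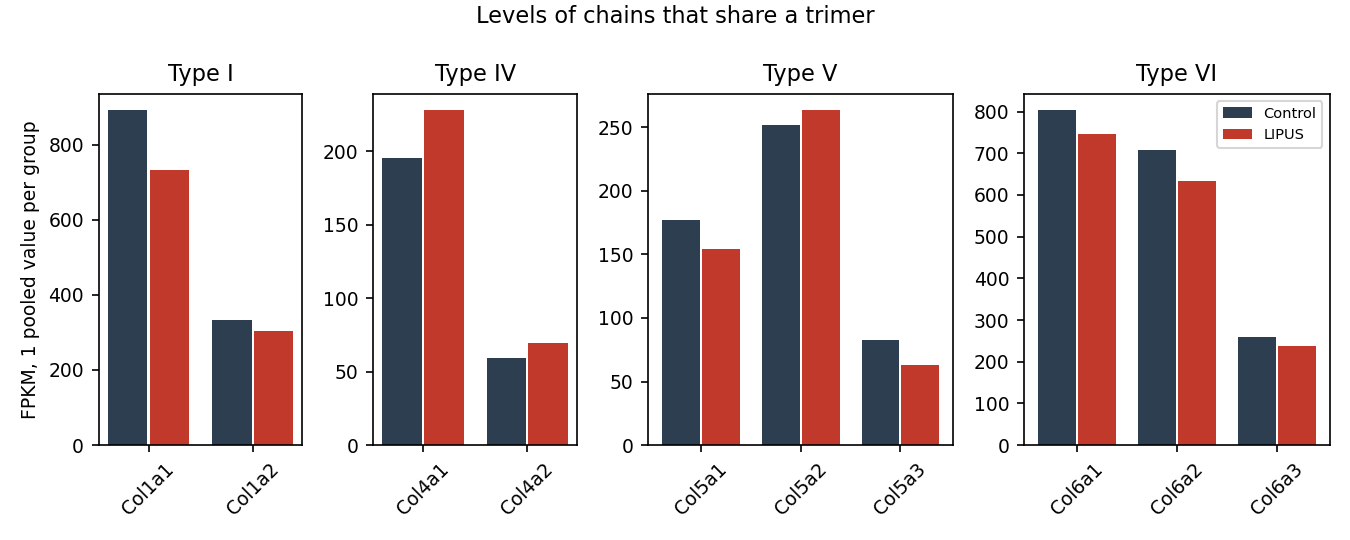
FPKM of chains that share a trimer, in Control (dark bars) and LIPUS (red bars), 1 pooled value per group, with a separate vertical scale for each type. The chains of a type keep their order in both groups, with Col1a1 above Col1a2, Col4a1 above Col4a2, Col5a2 above Col5a1 and Col6a1 above Col6a2 and Col6a3.

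Chains that are wound into the same trimer were compared as levels per length. In type I collagen, whose common form holds more α1 than α2 chains, the level of Col1a1 was 2.42 times that of Col1a2 in LIPUS and 2.67 times in Control. The ratio of Col4a1 to Col4a2 was 3.29 in LIPUS and 3.27 in Control, the closest match between the groups of the 5 ratios on the log2 scale (difference 0.0076). For Col5a1 over Col5a2 it was 0.585 and 0.705, the farthest apart (log2 difference -0.27). Col6a1 over Col6a2 had ratios of 1.17 and 1.14, and Col6a3 over Col6a1 had 0.320 and 0.323. The FPKM of a gene sums its transcripts, and GENCODE M21 lists 8 transcripts for Col4a1, 5 of them shorter than 1 kb, against 3 for Col4a2, 2 of them so short. The part of short transcripts in these ratios was not tested.

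Several chains are neighbours in the genome. Within 100 kb of each other lay 8 pairs of members, which involve 15 genes, and 3 pairs stand head to head, with their start sites adjacent and transcription running apart. Col4a1 (chromosome 8, 11198423 to 11312826, minus strand) and Col4a2 (11312805 to 11449287, plus strand) overlap by 22 bases at their starts, and both were expressed, with nearly the same log2 difference. Col4a4 and Col4a3, with start sites 72 bases apart on chromosome 1, and Col4a6 and Col4a5, 1309 bases apart on chromosome X, were at 0 in both groups. Of the protein-coding genes 39.8% were also at 0 in both groups, and a link between this arrangement and expression was not tested. Col3a1 and Col5a2 lie tail to tail on chromosome 1, 24.6 kb apart, and Col6a2 and Col6a1 in the same direction on chromosome 10, 85.2 kb apart. Col9a1 and Col19a1 were both at 0, and the cluster of Col6a4, Col6a5 and Col6a6 on chromosome 9 was at or near 0. The deposited table assigns Col4a1 and Col4a2 a single common locus, and although the libraries were made with a stranded kit, whether strand was used to assign reads is not given in the sources used here.

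The 24 chains below a mean FPKM of 1 reached at most 1.14 FPKM in either group (Col11a2 in LIPUS). Of these, 12 were at 0 in both groups, 8 were higher in LIPUS and 4 higher in Control. The share of each direction among all genes this low was not taken. By the steps none of these chains had more than 27 estimated fragments in LIPUS (Col11a2), so the counts are not read as a result about them. Listed at 0 in 1 group only were Col26a1 (0.0935 FPKM in LIPUS), Col6a5 (0.0818 FPKM in LIPUS) and Col8a2 (0.0581 FPKM in Control). The widest gap among low chains was that of Col23a1, a transmembrane chain named here after its values were seen, with 0.709 FPKM in LIPUS and 0.0343 FPKM in Control. The Control value stands for about 1 estimated fragment, so no fold is given.

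**Figure D5:**
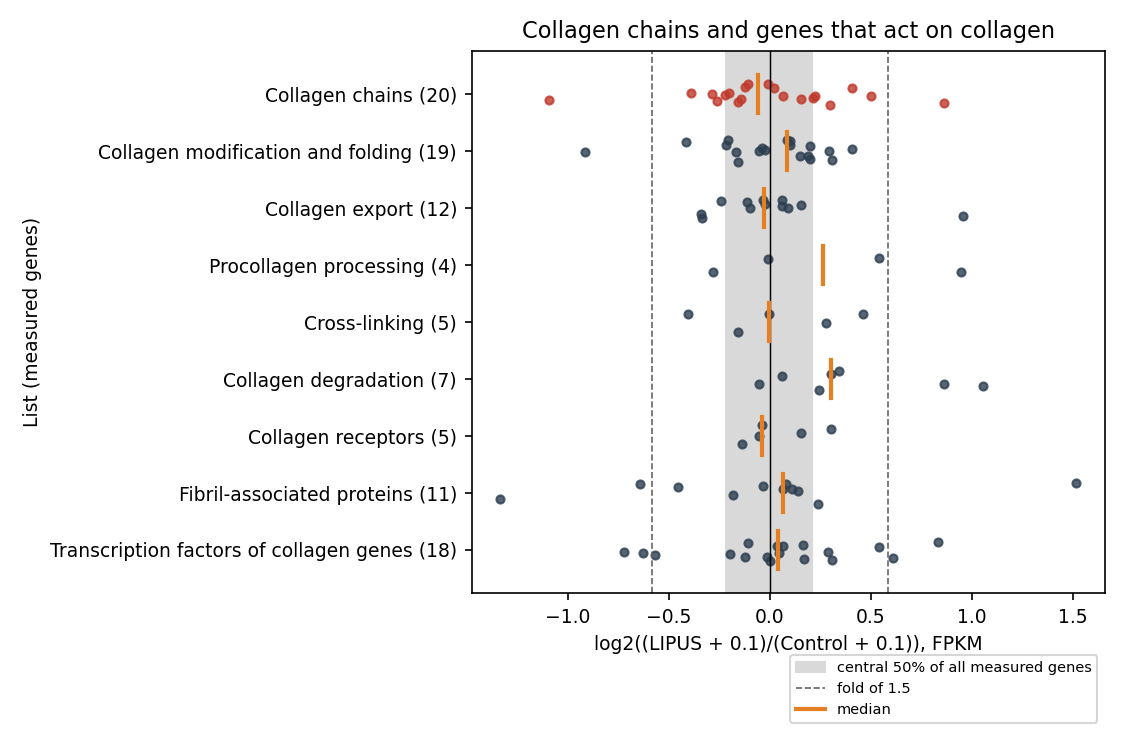
log2((LIPUS + 0.1)/(Control + 0.1)) in FPKM for each measured gene (points) of the collagen chains and of 8 lists of genes that act on collagen, with the median of each list as an orange line; the grey band is the central 50% of all measured genes and dashed lines mark a fold of 1.5. The points of most lists gather between the dashed lines, and those beyond belong to single genes such as Dcn at 1.52 and Postn at -1.33.

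Genes that make, process or bind collagen were compared in the same way, against the same 15.5% of measured genes past the fold of 1.5 and a median over all measured genes near 0. Of 19 measured genes of collagen modification and folding, 1 passed the fold and the median was 0.08. That gene was Tmem38b, an endoplasmic reticulum cation channel, with 5.81 FPKM in Control and 3.03 FPKM in LIPUS and no comparison by the authors' program. P4hb, the β subunit of prolyl 4-hydroxylase, and the chaperone Hspa5 were the most abundant, with 1300 and 513 FPKM in Control and 1393 and 585 FPKM in LIPUS.

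Of 12 measured genes of collagen export, 1 passed the fold, with a median of -0.03. Mia3 (TANGO1), which loads procollagen into vesicles, had 8.18 FPKM in Control and 16.0 FPKM in LIPUS (0.96). Creb3l1, a transcription factor of the secretory pathway in osteoblasts, had 207 and 164 FPKM, and the coat protein Sec13 163 and 181 FPKM. Of 4 measured procollagen-processing genes, Adamts14, an N-proteinase, passed the fold with 9.38 FPKM in Control and 18.2 FPKM in LIPUS (0.95). The C-proteinase Bmp1 had 83.0 and 68.3 FPKM and its enhancer Pcolce 703 and 698 FPKM, and the median of the list was 0.26. None of 5 cross-linking genes passed the fold (median -0.0051). Lox, a lysyl oxidase, had 1084 FPKM in Control and 972 FPKM in LIPUS, and Loxl3 had 108 and 150 FPKM.

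Of 7 measured genes of collagen breakdown, 2 passed the fold, both higher in the LIPUS pool. The log2 differences of the other 5 lay between -0.05 (Pepd) and 0.34 (Ctsk), 6 of the 7 were above 0, against 5747 of all 11536 measured genes, and the median was 0.31. The collagenase Mmp13 had 245 FPKM in Control and 446 FPKM in LIPUS (0.86), and the protease Fap had 4.34 and 9.12 FPKM (1.05). Mmp2, a gelatinase, had 247 and 293 FPKM. Of 5 measured collagen receptors none passed the fold (median -0.04), with the integrin chain Itgb1 at 239 and 266 FPKM and the endocytic receptor Mrc2 at 93.4 and 115 FPKM. Mrc2 was counted in both lists, and its log2 difference of 0.31 is the median of the breakdown list.

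Among the lists, proteins that bind fibrils had the widest range of log2 differences, from -1.33 (Postn) to 1.52 (Dcn). Of 11 measured, 3 passed the fold, with a median of 0.07. Decorin (Dcn), which coats fibrils, had 189 FPKM in Control and 540 FPKM in LIPUS (1.52). Fibromodulin (Fmod) had 83.1 and 53.3 FPKM (-0.64), and Postn, a matricellular protein of fibrous matrix, 2.94 and 1.11 FPKM (-1.33). Postn had no comparison by the authors' program. The most abundant by their mean over both groups, Fn1 and Bgn, were at 1915 and 1222 FPKM in Control and 2028 and 1077 FPKM in LIPUS.

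Of 18 measured transcription factors that act on collagen genes, 4 passed the fold and the median was 0.04. Egr1, an early response factor, had 166 FPKM in Control and 296 FPKM in LIPUS (0.83), and Sox9, the activator of Col2a1, Col9a1 and Col11a2 in cartilage, had 43.7 and 66.8 FPKM (0.61). The osteoblast factors Runx2 and Sp7 had 24.4 and 5.86 FPKM in Control and 14.8 and 3.75 FPKM in LIPUS (-0.72 and -0.63). Sp7 had no comparison by the authors' program, and it did not pass the fold with a pseudocount of 1 FPKM. Ybx1, the most abundant of the list, had 628 and 621 FPKM. Beside the higher level of Sox9, its cartilage targets stood, in Control and LIPUS, at 8.76 and 7.51 FPKM (Col2a1), 0 and 0 (Col9a1) and 0.579 and 1.14 FPKM (Col11a2). Col9a1 and Col11a2 had no comparison by the authors' program, and Col11a2 rested on about 12 and 27 estimated fragments. Whether Sox9 acted on these genes was not tested.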

How the data were processed

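The authors deposited the gene table of a Cuffdiff run, which holds 1 pooled FPKM for LIPUS, 1 for Control and a status per gene. The submitters' processing notes name bcl2fastq 1.8.3, Trimmomatic 0.36, TopHat2 2.1.0, Bowtie2 2.2.6.0, Cufflinks 2.1.1 and GRCm38; the methods name another Cufflinks release and Ensembl transcripts. Further columns hold the authors' log2 fold changes, test statistics, p-values, q-values and calls. They were not used. No column holds a single library, so replicates could not be compared here and no test was run.

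Ratios used a pseudocount of 0.1 FPKM, a mean FPKM of at least 1 and a fold of 1.5. Named were all measured chains, chains at 0 in 1 group, and, of each list, its 2 most abundant genes and every gene past the fold; other genes, such as Pepd, Ctsk and chains at or near 0, were named after their values were seen. Members and lists were chosen with earlier results of these data known. Gene models and sequences are from GENCODE M21, which held all members. The alternatives were other pseudocounts, filters, folds and centring. Python 3.11.15, numpy 2.4.6, pandas 2.3.3 and matplotlib 3.10.9 were used.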

Additional observations from a re-analysis of the deposited data

How the results depend on the processing

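The values of the 20 measured chains were recomputed with a pseudocount of 1 FPKM, with none and with centring on all genes, and all 60 stayed within the 95% counting error by the steps (filters leave a chain's own value as it is). This limit is wide for low chains. With a pseudocount of 1 FPKM, Col20a1 moved from -1.09 to -0.64 and stayed inside its interval of -1.97 to -0.21. Centring removed only the median of all measured genes (-0.00179), a shift too small to leave any interval. At the depth stated in the methods, chosen after seeing the data, the counting intervals of Col18a1, Col2a1 and Col8a1 no longer include 0. The counts of chains past the fold depended on the low genes. From 1 higher and 1 lower, they became 8 and 3 with no filter on low values, 0 and 0 at a mean FPKM of at least 10 or with status OK, 3 and 2 at a log2 threshold of 0.32, and 0 higher at a fold of 2. Of all genes with status OK, 9.31% passed the fold. For the other settings the share over all genes was not taken. These counts and those that follow therefore describe the settings and are not a result about the chains or lists. At a mean FPKM of at least 10, which leaves out Col20a1, Col7a1 and other low genes, no FACIT chain was lower (0) and no other chain higher (0), 0 modification and folding genes were lower, 1 degradation gene was higher, 1 fibril-associated gene was lower, 1 transcription factor was lower, and the median of the collagen receptors was 0.16. With a pseudocount of 1 FPKM, 1 transcription factor was lower. Without Col1a1, the most abundant chain by its mean over both groups, no share of a structural group moved by over 1.5 times. In the LIPUS pool alone, Col6a1 was more abundant (745 FPKM, against 731 FPKM for Col1a1).

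No paired analysis was possible because the table holds 1 pooled value per group, and for the same reason leaving out each replicate was not run. The table does not give the depth of single libraries, and no difference was set against the spread between cultures.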
